A study of Mus musculus with 48 samples.

Results

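IGHG1 is the constant gene of the mouse IgG1 heavy chain, and its transcripts were followed here in B cell receptor (BCR) heavy-chain libraries of the lacrimal gland (LG) and the spleen. Its members were chosen by the constant-gene call alone. They comprised 30732 of 4834214 deposited sequence entries and 149122 of 14545027 counts in 48 libraries, each count being 1 consensus of reads with a common unique molecular identifier (UMI). Every IGHG1 entry carried the same allele call, IGHG1*02. IGHG1 made up 0.324% of all deposited LG counts and 1.2% of all deposited spleen counts.

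The mice were C57BL/6 (B6). The NOD-FMT group (n = 10) and the PBS-T group (n = 9) both drank ampicillin, vancomycin and metronidazole for 7 days and were then gavaged daily for 3 weeks. The NOD-FMT mice were 5 weeks old at gavage, and the PBS-T mice were gavaged on the same schedule. The gavage was fecal supernatant of 30 male NOD.B10.H2b mice over 20 weeks old in the NOD-FMT group and phosphate-buffered saline in the PBS-T group. The donors are a strain that develops autoimmune dry eye disease. The BCR control group (n = 5, named NC1 in the labels) was left untreated, and its age is not given in the sources used here, so it differs from both other groups by antibiotics and by gavage. The labels do not tie recipients to single donors, so the recipients are replicates of the transfer and not of the donor. The LG and the spleen of each mouse were sequenced, and the same mouse number marks the same animal in the 2 tissues.

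IgG1 is made when an activated B cell joins its rearranged variable region to the IGHG1 constant gene by class-switch recombination, which removes the intervening genes of the IgM and IgD constant regions. In mice this switch is classically driven by interleukin 4 and T cell help, and IgG1 is the main IgG of many T-dependent responses. IgA, made after a switch to the IGHA gene further downstream, is the antibody that plasma cells of the LG deliver to the tears. Because one B cell clone can hold cells of several isotypes, the same variable region may be found with IGHM, IGHG1 and IGHA. Mismatches to the germline IGHV gene accumulate by somatic hypermutation, mainly in germinal centres.

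In GRCm38, Ighg1 lies on the minus strand at chr12:113325240-113330523, between Ighg3 at chr12:113356224-113361232 and Ighg2b at chr12:113302965-113307933. The reverse-transcription primer that matches it without a mismatch sits in exon 1, the CH1 exon, at chr12:113330484-113330503, and it also matches Ighg2b without a mismatch. The bases between that primer and the start of CH1 are therefore what separates IGHG1 from the other IgG genes in a read, and they are shown here, 5′ to 3′ on the coding strand, with bases that differ from Ighg1 in capitals. The primer is written 5′ to 3′ as synthesised, on the opposite strand.
IgG primer: ccaggggccagtggatagac
Ighg1: ccaaaacgacacccccatct
Ighg2b: ccaaaacAacacccccatcA
Ighg2c: ccaaaacAacaGccccatcG
Ighg3: cTaCaacAacaGccccatct
Over these 20 bases, counted from 1 at the first base of the exon, Ighg2b differed from Ighg1 by G8A and T20A. Ighg2c differed at 3 bases and Ighg3 at 4. The deposited sequences end with the J gene, so the subclass call could not be rechecked. Ighg1 and Ighg2b share this primer, whereas Ighg2c and Ighg3 are matched without a mismatch by other primers. The IgG primer shown differs from the Ighg2c site at its first base alone (C1A) and from the Ighg3 site at 3 bases. Levels of IGHG1 relative to IGHG3, and possibly to IGHG2C, therefore also rest on different primers.

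Any nucleotide sequence that at least 3 mice shared in a tissue was taken out before the comparisons. This took 3 of 9322 IGHG1 counts from the LG libraries and 27899 of 139800 from the spleens. Of the latter, 24245 were copies of the same unmutated sequence in the spleen of NOD-FMT mouse 3 (IGHV9-4 IGHJ3 ARGGDYSWFAY), which 4 mice held but which had 6 counts in all other mice together. After removal the libraries held 40105 to 264365 counts in the LG and 71859 to 2032338 in the spleen. A clonotype is the combination of IGHV gene, IGHJ gene and heavy-chain CDR3 (HCDR3) amino acid sequence, and 389 distinct IGHG1 clonotypes remained in the LG and 14519 in the spleen. Libraries that stood apart were the LG of PBS-T mouse 5, which lost 39.8% of its counts and yet held 98 IGHG1 clonotypes, the spleen of PBS-T mouse 6, which lost 66.6%, and the deepest spleen, that of NOD-FMT mouse 3. The LG of PBS-T mouse 5 held 17213 clonotypes of any isotype (0.569% IGHG1), against 560 to 2504 in the other LG libraries. The LG of NOD-FMT mice 7 and 5 lost 23.4% and 16.3%. The paper words its removal rule alike, as identical sequences in over 2 mice, but reports smaller removed shares in both tissues. Its removal was thus not reproduced here, and the reason was not tested. Removal also changed the totals behind the percentages. IGHG1 was 0.147% of the spleen counts of PBS-T mouse 6 as deposited and 0.433% after removal. In the LG of PBS-T mouse 5 it was 0.0614% and 0.101%. The labels mark 11 LG libraries as merged (6 NOD-FMT, 4 PBS-T and 1 BCR control). The sequence names in them carry 2 library prefixes, and the IGHG1 percentages of the sequences under each prefix had overlapping 95% Wilson intervals in 11 of 11 libraries. In NOD-FMT mice 1, 4, 7 and 8, however, 1 prefix held only 1, 2, 2 and 0 IGHG1 counts, so the overlap there tells little. What was merged is not stated.

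IGHG1 was lower in the LG of NOD-FMT mice than in the LG of PBS-T mice, whereas the spleens of the groups overlapped throughout. In the NOD-FMT LG it made up 0.00108% to 0.369% of counts, with a median of 0.0495% (n = 10). The PBS-T values ran from 0.0768% to 10.5% with a median of 0.573% (n = 9). The BCR control values were 0.0906%, 0.109%, 0.119%, 0.128% and 0.137%. Of the 9 PBS-T mice, 7 were above every NOD-FMT mouse, and 7 of the 10 NOD-FMT mice were below every PBS-T mouse, so the groups overlapped at their edges. The mean log2 percent differed by -4.0 (NOD-FMT minus PBS-T), a 16-fold difference of the geometric means (two-sided exact permutation test over mice, p = 0.000552, adjusted p = 0.0088 over 8 constant genes in 2 tissues). Of these 16 tests, 3 passed an adjusted threshold of 0.05 (18.8%). The other 2 were IGHA and IGHD in the LG, with log2 differences of 0.55 (adjusted p = 0.0191) and -2.16 (adjusted p = 0.0259) by the same exact permutation test. The IGHD difference rests on very few counts. IGHD had 675 deposited counts in all LG libraries together and a median of 0.00332% in NOD-FMT mice. In bulk RNA, fewer IGHG1 cells and less IGHG1 RNA per cell cannot be told apart.

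**Figure D1:**
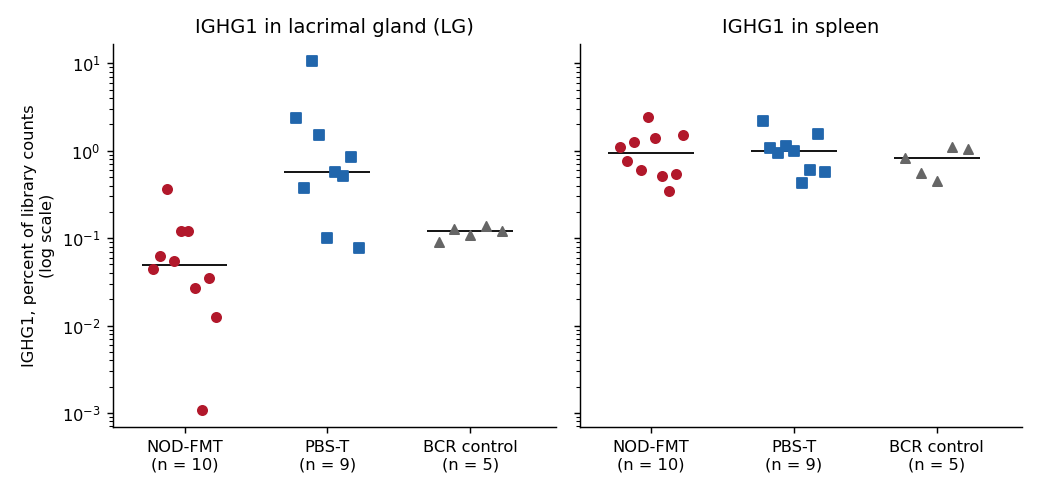
IGHG1 as a percent of the counts of each library (log scale) in the LG (left) and the spleen (right). Each point is 1 mouse and each line a group median. In the LG 7 of 9 PBS-T mice lie above the highest NOD-FMT mouse (0.369%), while all 3 groups overlap in the spleen.

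The LG values rested on few counts in the NOD-FMT mice. They had 1 to 227 IGHG1 counts per library, against 87 to 4230 in PBS-T mice and 73 to 90 in BCR control mice. NOD-FMT mouse 8 had 1 IGHG1 count among 92606, where 3 counts would be 0.0032%. That count belonged to a clonotype (IGHV1-84 IGHJ4 ARCLFSSTNCYLYF) with 59 to 61 V mismatches that NOD-FMT mouse 6 also held. Without this mouse the log2 difference was -3.48 and without PBS-T mouse 3 it was -3.50. PBS-T mouse 3 stood highest with 10.5% (Wilson 95% interval 10.3% to 10.9%, counting error only). The sequences under its 2 name prefixes gave 10.4% and 10.8%. PBS-T mice 1 and 4 followed with 2.39% and 1.51%.

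The difference was larger among the merged LG libraries than among the others, and it depended on the total against which IGHG1 was counted. Among merged libraries the log2 difference was -5.51, with no overlap between 6 NOD-FMT and 4 PBS-T mice (exact permutation p = 0.0095). Among the other libraries it was -2.78 (4 against 5 mice, exact permutation p = 0.0556). IGHA made up 94.6% to 98.7% of LG counts in NOD-FMT mice but only 13.9% to 97.1% in PBS-T mice, where mice 9 and 2 had 13.9% and 42.3%. The IGHG1 share of these 2 mice was 0.0768% and 0.371%, and their IGHM share 48.9% and 25.0%. Pearson's r between the LG log2 percents of IGHG1 and IGHA, given as a description, was 0.53 in PBS-T and -0.55 in NOD-FMT mice. Counted against all LG counts that are not IGHA, IGHG1 differed by -1.93 on the log2 scale (exact permutation p = 0.125), and against IgG counts alone by -1.99 (exact permutation p = 0.105). As a percent of clonotypes the difference was -1.60 (exact permutation p = 0.0053). The part of the IGHA level in the IGHG1 difference was not tested beyond these values.

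Among IgG transcripts the place of IGHG1 also varied widely in PBS-T mice. It made up 0.101% to 11.1% of the LG IgG counts of NOD-FMT mice with a median of 2.43%, and 0.206% to 75.7% with a median of 20.6% in PBS-T mice. BCR control mice ranged from 1.64% to 9.20%. By its median, IGHG1 was the fourth of 8 constant genes in the LG of PBS-T mice, after IGHA, IGHM and IGHG2B, and the fifth in both other groups, where IGHG2C (0.361% in NOD-FMT and 0.328% in BCR control mice) came before it. In the spleen it was the seventh in all 3 groups, ahead of IGHE alone.

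In the spleen IGHG1 made up 0.346% to 2.45% of counts in NOD-FMT mice (median 0.932%) and 0.433% to 2.18% in PBS-T mice (median 0.998%). The BCR control spleens had 0.457%, 0.553%, 0.823%, 1.06% and 1.12%. The ranges overlapped throughout, and the log2 difference between NOD-FMT and PBS-T was -0.08 (exact permutation p = 0.831, adjusted p = 0.83). As a percent of clonotypes, however, IGHG1 was lower in NOD-FMT than in PBS-T spleens, with medians of 0.357% and 0.498%. The log2 difference was -0.70 (exact permutation p = 0.0055, not adjusted). The BCR control spleens had 0.256% to 0.393%, with a median of 0.281% that was below both. Against the BCR control group, 0 of 24 exact permutation tests of IGHG1 measures passed the adjusted threshold and 8 had an unadjusted p under 0.05. The LG difference was 2.53 for PBS-T (p = 0.029, adjusted p = 0.13, exact permutation) and -1.47 for NOD-FMT mice (p = 0.15, adjusted p = 0.30, exact permutation).

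Within mice, the LG held a smaller share of IGHG1 than the spleen in every NOD-FMT mouse but not in every PBS-T mouse. In NOD-FMT mice the mean LG minus spleen difference in log2 percent was -4.41 (0 of 10 mice higher in the LG, exact sign-flip permutation p = 0.00195, the smallest that 10 mice can give, adjusted p = 0.0048). In PBS-T mice the mean difference was -0.49 (4 of 9 mice higher in the LG, exact permutation p = 0.480), and in BCR control mice it was -2.70 (0 of 5, exact permutation p = 0.0625, the smallest that 5 mice can give). The LG-to-spleen difference itself differed between NOD-FMT and PBS-T mice by -3.92 (exact permutation p = 0.000195, adjusted p = 0.0010 over 5 such tests). It was -0.90 as percent of clonotypes (exact permutation p = 0.082), -1.44 of IgG counts (exact permutation p = 0.153) and -1.88 of counts that are not IGHA (exact permutation p = 0.108). Over all 24 mice the mean difference was -2.58 (p = 6.0e-05, adjusted p = 0.000148, permutation test with 100000 resamples). This direction turned when the denominator changed. As a percent of clonotypes IGHG1 was higher in the LG by 1.34, and as a percent of counts that are not IGHA by 1.47. Pearson's r between LG and spleen log2 percent, given as a description, was 0.62 in 10 NOD-FMT mice and 0.40 in 9 PBS-T mice.

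The constant genes whose log2 percent varied most like that of IGHG1 over the 24 LG libraries were IGHG3 (r = 0.39) and IGHD (r = 0.38), and over the 24 spleens IGHE (r = 0.42) and IGHG3 (r = 0.35). These correlations are weak. Shares of the same library are bound to a common total, and the LG correlation with IGHG3 was -0.66 within the 9 PBS-T mice alone.

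NOD-FMT mice also had fewer IGHG1 clonotypes in the LG. NOD-FMT mice had 1 to 18 IGHG1 clonotypes in the LG (median 7.5, n = 10) and PBS-T mice 7 to 98 (median 19, n = 9). The BCR control mice had 6, 6, 6, 7 and 11. The geometric means of NOD-FMT and PBS-T mice differed 2.98-fold (exact permutation p = 0.0109, adjusted p = 0.0348 over 16 repertoire measures). In the spleen the numbers were 299 to 2413 and 113 to 1497, and the log2 difference was -0.0010 (exact permutation p = 0.999). Of the 16 measures, mutation state, sharing with IGHM and the LG clonotype number are described with their tests in turn. The others did not pass the adjusted threshold.

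The largest clonotype held a mean of 44.2% of the IGHG1 counts in the LG and 12.9% in the spleen of the 22 mice with 5 or more LG IGHG1 clonotypes. This is a description without a test, since the LG libraries had far fewer IGHG1 clonotypes than the spleens and a share over few clonotypes cannot be low. NOD-FMT mouse 5 had 4 and mouse 8 had 1 LG IGHG1 clonotypes, and these mice are left out of the LG means of mutation state, HCDR3 length and sharing. The share of the largest clonotype was 48.4% ± 20.8 (SD, n = 8) in NOD-FMT and 39.0% ± 18.5 (SD, n = 9) in PBS-T LG, which did not differ beyond the spread (exact permutation p = 0.336).

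The leading LG clonotype of each group is shown by its HCDR3 nucleotides, with the longest stretch identical to an annotated IGHD gene in capitals.
NOD-FMT mouse 3, IGHV1-61 IGHJ3: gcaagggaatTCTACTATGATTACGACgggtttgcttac
PBS-T mouse 3, IGHV1-15 IGHJ3: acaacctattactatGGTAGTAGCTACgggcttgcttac
BCR control mouse 1, IGHV8-8 IGHJ4: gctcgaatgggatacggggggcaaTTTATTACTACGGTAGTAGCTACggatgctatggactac
The stretches match Ighd2-4 over 17 bases, Ighd1-1 over 12 and Ighd1-1 over 23. The NOD-FMT clonotype (AREFYYDYDGFAY) had 138 IGHG1 counts, 60.8% of the IGHG1 of its library, with a mean of 0.022 V mismatches per count, no IGHA and no count in the spleen of the mouse. The BCR control clonotype, with an HCDR3 of 21 residues, had 61 counts of a single unmutated sequence, 83.6% of the IGHG1 of its library, and was likewise not seen in the spleen. The PBS-T clonotype (TTYYYGSSYGLAY) had 2381 counts, 5.94% of the whole library and 56.3% of its IGHG1, with at least 4 V mismatches in every sequence. It also had 310 IGHG1 counts in the spleen of the same mouse. In the LG 311 counts of the same clonotype were called IGHG2B.

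PBS-T mouse 3 held a related clonotype that was shared with IGHA. The most abundant IGHG1 sequences of the 2 clonotypes differed at 3 of 340 bases, 2 of them within the HCDR3, which are in capitals.
TTYYYGSSYGLAY: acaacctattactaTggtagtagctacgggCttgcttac
TTYYYGSSYGFAY: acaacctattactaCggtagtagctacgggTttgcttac
Counted from the first base of the HCDR3, the changes were T15C and C31T, and in amino acids L11F. The second clonotype had 284 IGHG1 and 406 IGHA counts in the LG with 5.02 V mismatches per count in each isotype, and 60 IGHG1 and 176 IGHA counts in the spleen. Its most abundant IGHG1 sequence was identical to its most abundant IGHA sequence over all 340 bases. The first clonotype had no IGHA count in the LG and 24 in the spleen.

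Some other large LG clonotypes of PBS-T mice were also IGHA, as were 27 of the 84 with 10 or more IGHG1 counts, against 4 of 19 in NOD-FMT and 3 of 17 in BCR control mice. In PBS-T mouse 1, IGHV1-4 IGHJ2 ARQGYDYVLDY had 371 IGHG1 and 177 IGHA counts in the LG and 78 IGHG1 counts in the spleen, and 357 of its IGHG1 counts were on sequences also seen as IGHA. In PBS-T mouse 3, IGHV1-72 IGHJ1 ARWYYGPYWYFDV had 309 IGHG1 and 272 IGHA counts, and in PBS-T mouse 6, IGHV1-18 IGHJ2 AREGLLRFDY had 182 and 235. IGHV1-74 IGHJ2 AIEGLYYSNFY of PBS-T mouse 8 had 292 IGHG1 counts and no IGHA count. In NOD-FMT mice the second and the third by share of the library were IGHV6-6 IGHJ4 TSRDY of mouse 5 (145 IGHG1 and 287 IGHA counts) and IGHV5-17 IGHJ4 ARNDYDEGGMDY of mouse 6 (54 IGHG1 and 30 IGHG2C counts, no IGHA). In the BCR control LG they were IGHV10-1 IGHJ1 VREILRYPYWYFDV of mouse 2, with 46 counts and no IGHA, and IGHV1-64 IGHJ1 ARFYYGAYWYFDV of mouse 5, with 31 IGHG1 and 115 IGHA counts.

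Summed over mice, 9 of 88 LG IGHG1 clonotypes also had IGHA counts in the same LG in NOD-FMT mice, 62 of 271 in PBS-T mice and 3 of 36 in BCR control mice. PBS-T mouse 5 alone supplied 98 of the 271 and 22 of the 62. Per mouse the share was 9.71% ± 14.96 (SD, n = 8) in NOD-FMT and 21.3% ± 11.4 (SD, n = 9) in PBS-T mice (exact permutation p = 0.0897, adjusted p = 0.18). It was 0% in 4 of the 8 NOD-FMT mice, and every PBS-T mouse had at least 10%. Among NOD-FMT mice the highest share was 42.9%, in mouse 9. Its omission changed the difference from -11.6 to -16.3 percentage points (exact permutation p = 0.0041). The highest share of all, 46.2%, was that of PBS-T mouse 4, whose omission shrank the difference to -8.44 points. Of 19 such single omissions, 18 kept the direction and the side of the unadjusted threshold, with p up to 0.167 by exact permutation. With LG libraries thinned to 40105 counts, only mice with 5 or more IGHG1 clonotypes in every draw entered, fewer than the 8 NOD-FMT mice. The difference was then -14.3 points (exact permutation p = 0.0295). Among the merged libraries it was -11.9 points (5 NOD-FMT and 4 PBS-T mice, exact permutation p = 0.0317) and among the others -5.76 points (3 and 5 mice, exact permutation p = 0.643). By nucleotide sequence, 133 of 906 IGHG1 counts in NOD-FMT, 2255 of 8006 in PBS-T and 56 of 407 in BCR control LG were on a sequence that the same library also held as IGHA. For IGHG2B, which is separated from IGHG1 by 2 of the 20 CH1 bases, the same counts were 230, 3544 and 13. All IGHG1 counts of a sequence enter here once the other isotype has 1 count, so a few large sequences weigh heavily. By number of sequences, 8 of 138, 79 of 597 and 4 of 57 were also IGHA, and 5, 21 and 2 were also IGHG2B.

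**Figure D2:**
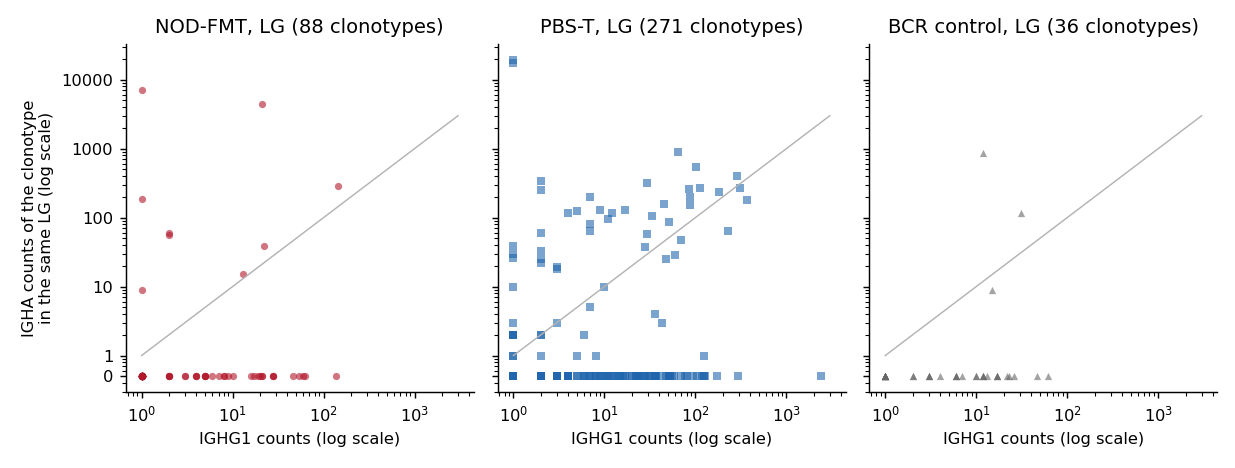
Each point is 1 IGHG1 clonotype of an LG library, with its IGHG1 counts (x axis, log scale) and its IGHA counts in the same LG (y axis, log scale with a row for 0). The grey line marks equal counts. Clonotypes with IGHA number 9 of 88 in NOD-FMT, 62 of 271 in PBS-T and 3 of 36 in BCR control mice, and the 2381-count clonotype of PBS-T mouse 3 lies at 0 IGHA.

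IGHG1 and IGHM were rarely joined in the LG. An LG IGHG1 clonotype also had IGHM counts in 1.44% of cases on average, against 20.9% in the spleen (0 of 22 mice higher in the LG, p = 1e-05, the smallest that the permutation test with 100000 resamples can give). All 5 BCR control LG libraries had 0%. IGHM made up a median of 0.778% of NOD-FMT, 3.18% of PBS-T and 1.09% of BCR control LG counts. In the spleen its medians were 70.2%, 74.0% and 68.5%. A mouse had a median of 136 IGHM clonotypes in the LG and 99137.5 in the spleen. The contrast of tissues cannot be told apart from this difference in IGHM, whose part was not tested. With IGHA, the LG and the spleen had 13.9% and 19.8% (higher in the LG in 9 of 22 mice, permutation p = 0.0800).

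A smaller share of IGHG1 clonotypes was unmutated in NOD-FMT than in PBS-T mice, in the LG and in the spleen. A clonotype counts as unmutated when at least 1 of its IGHG1 sequences has no mismatch to the germline IGHV gene. The share can thus rise with the number of sequences per clonotype, and it was not thinned to equal depth. In the LG, 138 IGHG1 sequences made up 88 clonotypes in NOD-FMT mice, and 597 made up 271 in PBS-T mice. In the LG the share was 12.5% to 57.1% in NOD-FMT mice (median 22.9%, n = 8) and 30.6% to 79.5% in PBS-T mice (median 63.2%, n = 9). The means were 29.2% ± 15.04 and 58.4% ± 18.8 (SD), a difference of -29.2 points (exact permutation p = 0.0049, adjusted p = 0.0197). Of the 9 PBS-T mice, 5 lay above every NOD-FMT mouse. The BCR control LG had 33.3%, 66.7%, 71.4%, 72.7% and 83.3%. Among the merged LG libraries the groups did not overlap (-31.3 points, exact permutation p = 0.0079), and among the others the difference was -19.1 points (3 against 5 mice, exact permutation p = 0.25). With 6 to 18 clonotypes behind each NOD-FMT value, 1 clonotype moves such a share by several points. Among clonotypes of 5 or more counts in an isotype the difference was -50.5 points, with only 2 NOD-FMT against 6 PBS-T mice left (exact permutation p = 0.0357).

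In the spleen, where each value rests on 113 or more clonotypes, the unmutated share was 21.9% to 38.9% in NOD-FMT mice (median 29.0%) and 32.7% to 50.1% in PBS-T mice (median 40.3%). Of the 10 NOD-FMT spleens, 8 lay below every PBS-T spleen. The means were 30.0% ± 4.9 (SD, n = 10) and 40.1% ± 6.2 (SD, n = 9), a difference of -10.1 points (exact permutation p = 0.0012, adjusted p = 0.0152), and among clonotypes of 5 or more counts in an isotype it was -19.5 points (exact permutation p = 0.00084). The BCR control spleens, with 26.8%, 32.1%, 33.7%, 36.2% and 43.2%, lay across both groups. Compared over all constant genes with enough clonotypes, 4 of 15 tests of the unmutated share passed (26.7%). IGHG1 was among them in both tissues (adjusted p = 0.0185 in the LG and 0.0088 in the spleen, exact permutation), together with IGHA (-6.57 points, adjusted p = 0.0018) and IGHG2B (-9.40 points, adjusted p = 0.0185) in the spleen.

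**Figure D3:**
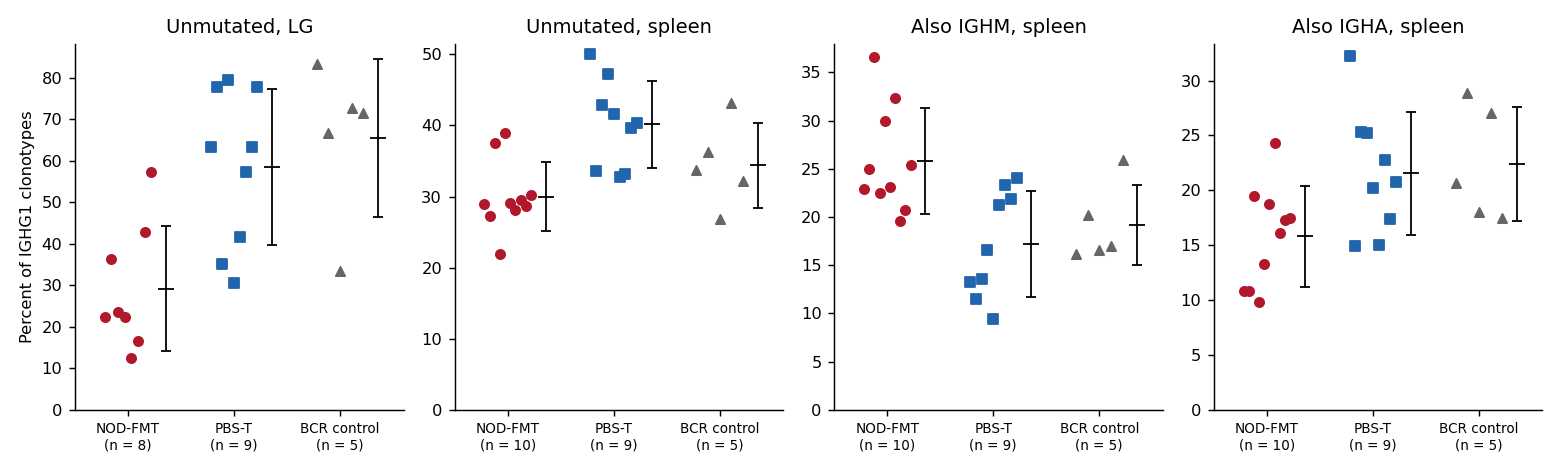
Percent of IGHG1 clonotypes that are unmutated in the LG and the spleen, and that also hold IGHM or IGHA counts in the same spleen. Points are mice, and the bars beside them are the mean ± SD. Unmutated shares are lower in NOD-FMT than in PBS-T mice in both tissues (29.2% against 58.4% and 30.0% against 40.1%).

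The mean number of V mismatches per spleen IGHG1 clonotype was higher in NOD-FMT mice, at 3.10 to 4.04 (median 3.52), than in PBS-T mice, at 2.19 to 3.76 (median 2.80). The BCR control spleens had 3.03, 3.12, 3.28, 3.78 and 4.20. The means of NOD-FMT and PBS-T were 3.53 ± 0.31 (SD, n = 10) and 2.83 ± 0.48 (SD, n = 9), and the difference was 0.70 (exact permutation p = 0.0019, adjusted p = 0.0152). Among 15 tests of V mismatches over the constant genes it was the only one to pass (6.67%, adjusted p = 0.0284 by exact permutation). Averaged over counts instead of clonotypes the difference was 0.41 (exact permutation p = 0.251). In the LG the means were 4.38 ± 3.83 (SD, n = 8) and 2.63 ± 1.70 (SD, n = 9), which did not differ beyond the spread (exact permutation p = 0.245). The highest LG value, 13.3 in NOD-FMT mouse 6, includes the IGHV1-84 clonotype with 59 to 61 mismatches. Without this mouse the LG difference changed from 1.75 to 0.48 (exact permutation p = 0.553). Only 7 LG and 308 spleen IGHG1 counts had over 20 mismatches, and without them the spleen difference was 0.62 (exact permutation p = 0.0024).

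Against the other isotypes of the same spleens, IGHG1 clonotypes carried more V mismatches than those of IGHM, IGHD and the other IgG genes. Over 24 spleens the means were 3.26 mismatches for IGHG1, 0.62 for IGHM and 0.52 for IGHD, and IGHG1 was higher than IGHM in 24 of 24 (permutation p = 1e-05, the smallest 100000 resamples can give). IGHG1 exceeded IGHG2B by 0.67 (23 of 24 spleens), IGHG3 by 0.85 (21 of 24) and IGHG2C by 0.48 (21 of 24), each with an adjusted permutation p of at most 0.00104. By group, the excess over IGHG2C was 0.70 in NOD-FMT mice (10 of 10, exact permutation p = 0.00195) and 0.092 in PBS-T mice (7 of 9, exact permutation p = 0.570), and that over IGHG3 was 1.18 (10 of 10, exact permutation p = 0.00195) and 0.38 (6 of 9, exact permutation p = 0.141). These differences between the groups were not tested. The mean difference from IGHA was -0.04 (14 of 24 spleens higher for IGHG1, permutation p = 0.708). It was -0.75 averaged over counts (permutation p = 0.0029) and -0.45 among clonotypes of 5 or more counts (permutation p = 0.00549), so IGHG1 then lay below IGHA. Over clonotypes it took opposite signs in the treated groups, with 0.29 in NOD-FMT mice (9 of 10 higher, exact permutation p = 0.0059) and -0.18 in PBS-T mice (3 of 9 higher, exact permutation p = 0.211). These differed from each other by 0.47 (exact permutation p = 0.0151, adjusted p = 0.0378). Averaged over counts, the difference between the groups was 0.38 (exact permutation p = 0.312).

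**Figure D4:**
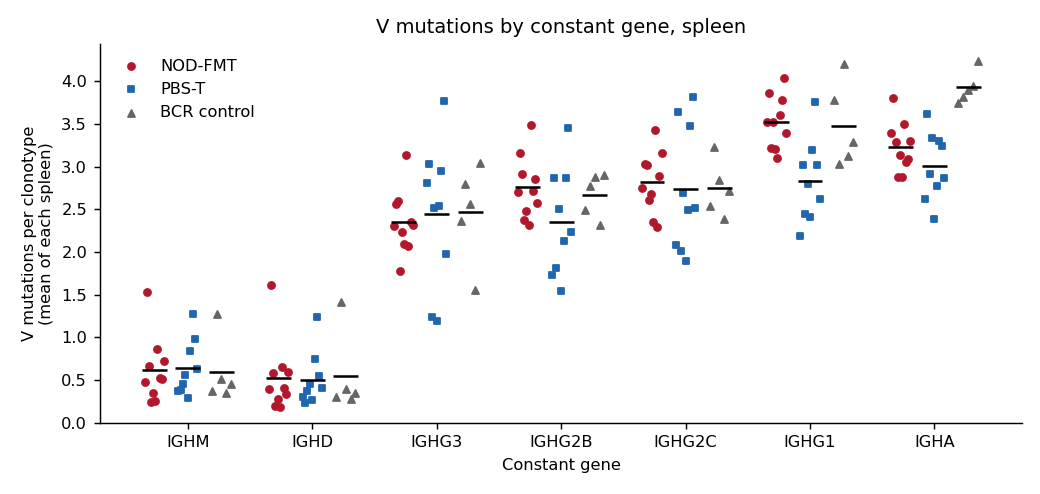
Mean V mismatches per clonotype (y axis) by constant gene (x axis) in each spleen. Points are mice and lines are group means. IGHG1 has a mean of 3.53 in NOD-FMT and 2.83 in PBS-T mice, and IGHM and IGHD have means of 0.62 and 0.52 over all 24 spleens.

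Over the 22 mice, 49.4% of LG and 34.8% of spleen IGHG1 clonotypes were unmutated (higher in the LG in 16 of 22, permutation p = 0.0032, adjusted p = 0.0054). The unmutated share was higher in the LG than in the spleen by 18.3 points in PBS-T mice (7 of 9, exact permutation p = 0.0273, adjusted p = 0.067) and by 31.1 points in BCR control mice (5 of 5, exact permutation p = 0.0625, the smallest 5 mice can give). In NOD-FMT mice the difference was 0.23 points (4 of 8 higher, exact permutation p = 0.961). NOD-FMT and PBS-T mice differed in it by -18.0 points, short of the threshold (exact permutation p = 0.0529, adjusted p = 0.088). Within the NOD-FMT LG, IGHG1 had a lower unmutated share than IGHA, with 29.2% against 53.0% (0 of 8 mice higher, exact permutation p = 0.0078, the smallest 8 mice can give, adjusted p = 0.0139), whereas PBS-T mice had 58.4% and 51.5% (6 of 9 higher, exact permutation p = 0.184). The difference between the groups in this respect was not tested. A clonotype with more sequences has more chances to hold an unmutated one. In all LG libraries IGHA had 160033 deposited entries and 29692 distinct clonotypes after removal, against 905 and 389 for IGHG1. The part of this in the contrasts between isotypes and between tissues was not tested.

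In the spleen a larger share of IGHG1 clonotypes also held IGHM counts in NOD-FMT mice, at 19.6% to 36.6% (median 24.04%), than in PBS-T mice, at 9.43% to 24.1% (median 16.6%). BCR control mice had 16.2%, 16.6%, 16.9%, 20.2% and 25.96%. The means of NOD-FMT and PBS-T were 25.8% ± 5.5 (SD, n = 10) and 17.2% ± 5.5 (SD, n = 9), a difference of 8.60 points (exact permutation p = 0.0034, adjusted p = 0.0181). With every spleen thinned to 71859 counts the difference was 6.61 points (exact permutation p = 0.0134). Among clonotypes of 5 or more counts in an isotype it was 4.88 points (exact permutation p = 0.493). The share with IGHA went the other way, at 15.8% ± 4.6 (SD, n = 10) and 21.5% ± 5.6 (SD, n = 9), without passing after adjustment (-5.73 points, exact permutation p = 0.0248, adjusted p = 0.066). Among clonotypes of 5 or more counts in an isotype it was -13.5 points (exact permutation p = 0.0038, not adjusted).

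Leading spleen IGHG1 clonotypes were ranked after removal of shared sequences. As deposited, IGHV9-4 IGHJ3 ARGGDYSWFAY of NOD-FMT mouse 3 was larger than those named here, with 24245 IGHG1 counts removed and 1311 kept. In the same mouse, IGHV1-47 IGHJ4 ARQGDNGYGMDY had 4230 IGHG1, 11554 IGHG2B, 386 IGHM and 135 IGHA counts, and ARQGDHGYGMDY had 1566 IGHG1, 1766 IGHG2C, 93 IGHM and 11 IGHA counts. Their most abundant sequences differed at 2 of 337 bases. The difference within the HCDR3, A16C or N6H in amino acids, is in capitals.
ARQGDNGYGMDY: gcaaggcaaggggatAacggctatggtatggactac
ARQGDHGYGMDY: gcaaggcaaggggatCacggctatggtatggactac
In NOD-FMT mouse 10, IGHV1-72 IGHJ3 ARGDYSNWFAY made up 38.2% of the spleen IGHG1, with 2194 IGHG1, 48 IGHM and 2 IGHA counts. IGHV2-2 IGHJ3 ASYGGFAY of NOD-FMT mouse 5 (1249 IGHG1 counts) and IGHV1-39 IGHJ3 ARSEYGYGGFAY of NOD-FMT mouse 6 (750) had more IGHG2C than IGHG1 counts, 1969 and 969. In PBS-T spleens the leading clonotypes were IGHV1-50 IGHJ1 ARDGDYESRGYFDV of mouse 2 (630 counts, 3.34 mismatches per count), an IGHV8-8 IGHJ1 clonotype of mouse 1 with an HCDR3 of 15 residues (817) and IGHV8-8 IGHJ2 ARMIFDGYYGYFDY of mouse 8 (762, with 698 IGHM counts and 6.09 mismatches). None of these 3 had an IGHA count. The 3 leading BCR control clonotypes after removal came from the spleen of mouse 4 and had IGHA counts. They were IGHV1-55 IGHJ3 ASYYGSSYRFAY (590 IGHG1 and 114 IGHA counts), IGHV5-16 IGHJ1 ARGSSYWYFDV (543 and 113) and IGHV1-61 IGHJ4 ARRGNFFMDY (347 and 37). Removal had taken 681 IGHG1 counts of the IGHV5-16 clonotype from mouse 4 and 819 from mouse 5, so this order holds only after it.

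LG IGHG1 clonotypes were present in the own spleen of a mouse more often than in the spleens of other mice of the same group. With any isotype, 47.1% on average were in the own spleen and 2.88% in another spleen, higher for the own spleen in 22 of 22 mice (p = 1e-05, the smallest that the permutation test with 100000 resamples can give). The own-spleen share was 11.1% to 100% in NOD-FMT mice (median 27.5%, n = 8), 16.7% to 76.9% in PBS-T mice (median 44.4%, n = 9) and 33.3%, 54.5%, 57.1%, 83.3% and 100% in BCR control mice. NOD-FMT and PBS-T means, 38.7% ± 29.6 and 44.4% ± 19.8 (SD), did not differ beyond the spread (exact permutation p = 0.647). The difference was -15.6 points among merged LG libraries (exact permutation p = 0.206) and 14.0 among the others (exact permutation p = 0.536). The value of 100% in NOD-FMT mouse 9 rests on 7 clonotypes and that in BCR control mouse 3 on 6. In the reverse direction, 3.82% ± 2.10 (SD, n = 10) of spleen IGHG1 clonotypes in NOD-FMT and 4.74% ± 1.77 (SD, n = 9) in PBS-T mice were in the own LG (exact permutation p = 0.313).

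**Figure D5:**
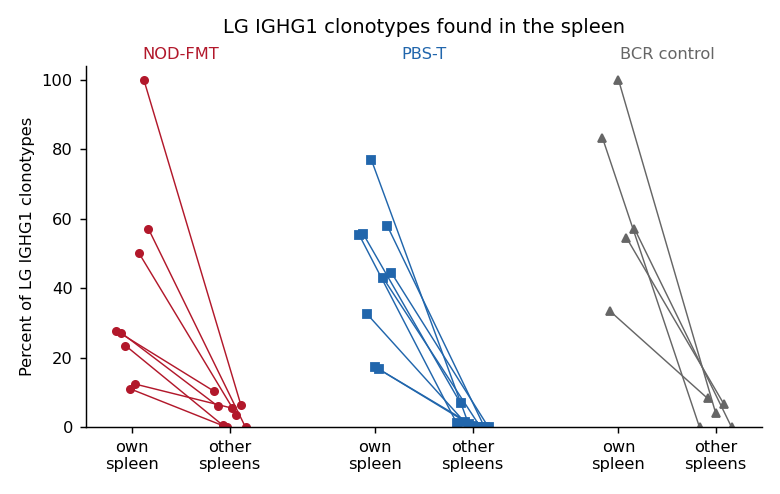
Percent of the LG IGHG1 clonotypes of each mouse (y axis) found with any isotype in its own spleen and, on average, in the spleens of other mice of the same group. Lines join the 2 values of a mouse. The own-spleen value is the higher in 22 of 22 mice.

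Of the IGHG1 clonotypes, 6 of 389 (1.54%) in the LG and 143 of 14519 (0.985%) in the spleen were IGHG1 in at least 2 mice. Counted in the same way, the share in the LG was 1.69% of 355 clonotypes for IGHG3 and 6.47% of 29692 for IGHA. It was 3.12% for IGHM, 3.84% for IGHG2B, 4.33% for IGHG2C and 6.01% of 37638 LG clonotypes of any isotype. In the spleen it was 0.945% for IGHG2C, 2.14% for IGHG3, 2.64% for IGHA and 6.05% for clonotypes of any isotype. The share depends on how many clonotypes each mouse had (a median of 501 per spleen for IGHG1 and 4146 for IGHA), so these values are given side by side with no test. Each of the 6 in the LG was in 2 mice. IGHV1-55 IGHJ2 ARARWSYYFDY (29 counts) and IGHV1-47 IGHJ1 SRGSNYGYFDV (18 counts) were held by BCR control mice 2 and 3, IGHV2-2 IGHJ4 ARNHNYDAMDY (11 counts) by PBS-T mouse 5 and BCR control mouse 5, and the remaining 3 had 2 counts each. In all 6 the HCDR3 nucleotides were identical in the 2 mice. Their V mismatches in the 2 mice were 1 and 1, 2 and 2, 5 and 5.25, 2 and 2, 3 and 3, and 59 and 61. Removal acted only on sequences in at least 3 mice, so carry-over between 2 libraries would stay in, and this was not tested. In the spleen the most widely held was IGHV1-12 IGHJ3 AREGFAY in 9 mice (148 counts, 8 HCDR3 nucleotide sequences), followed by IGHV1-55 IGHJ3 ARGFTY in 8 mice (5 PBS-T and 3 NOD-FMT) and IGHV1-18 IGHJ1 ARGSSYWYFDV in 7 (3 PBS-T and 4 BCR control). IGHV1-76 IGHJ2 ARRGDGYYFDY was in 6 mice and IGHV5-16 IGHJ1 ARGSSYWYFDV in 5. These numbers were counted after sequences shared by at least 3 mice were taken out, and with those sequences kept 6 of 389 in the LG and 168 of 14662 in the spleen recurred.

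IGHV use was broad. In the spleen the most used genes were IGHV1-26 (5.44% ± 1.84 of IGHG1 clonotypes, SD, n = 24), IGHV1-64 (4.70% ± 1.85), IGHV1-53 (3.98% ± 1.27), IGHV1-55 (3.93% ± 1.50) and IGHV1-72 (3.26% ± 1.19). IGHV1-26 was used less by IGHG1 than by all clonotypes of the same spleen, where it made up 7.75% (lower in 23 of 24 mice, permutation p = 2.0e-05). Between NOD-FMT and PBS-T spleens, 2 of 80 IGHV genes passed an adjusted threshold of 0.05 (2.5%), and 13 had an unadjusted p under 0.05 (16.2%). IGHV1-59 was used by 2.85% ± 1.49 (SD, n = 10) of NOD-FMT and 0.816% ± 0.565 (SD, n = 9) of PBS-T IGHG1 clonotypes, and IGHV1-64 by 3.79% ± 0.76 and 6.02% ± 2.03 (adjusted p = 0.0394 for each, exact permutation). Both calls were lost without PBS-T mouse 1, 2, 3, 4, 5, 6 or 8, each left out alone, and that of IGHV1-64 without NOD-FMT mouse 1, 3, 4, 5, 7 or 9. In the LG the most used genes were IGHV1-18 (4.88%, in 10 of 24 libraries), IGHV1-84 (4.84%, in 4), IGHV1-26 (4.56%, in 9), IGHV1-53 (3.85%, in 8) and IGHV1-64 (3.48%, in 7). Most of the IGHV1-84 value came from the single clonotype of NOD-FMT mouse 8. Over the 22 LG libraries with at least 5 IGHG1 clonotypes, a choice made after seeing the data, IGHV1-84 had 0.734%, IGHV1-18 5.33%, IGHV1-26 4.97%, IGHV1-64 3.79% and IGHV1-53 3.07%.

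HCDR3 length of IGHG1 clonotypes did not differ between NOD-FMT and PBS-T mice beyond the spread. In the spleen it was 11.6 ± 0.3 amino acids (SD, n = 10) in NOD-FMT and 11.8 ± 0.2 (SD, n = 9) in PBS-T mice (exact permutation p = 0.126). In the LG it was 9.86 to 13.2 in NOD-FMT mice (mean 11.3) and 11 to 13.4 in PBS-T mice (mean 12.2), a difference of -0.86 (exact permutation p = 0.0918). Leaving out NOD-FMT mouse 4 gave -1.13 (p = 0.0227, exact permutation) and leaving out mouse 7 gave -1.07 (p = 0.0367, exact permutation), both past the unadjusted threshold. Within spleens, IGHG1 HCDR3s were longer than those of IGHM by 0.26 amino acids (21 of 24 mice, permutation p = 0.000150, adjusted p = 0.00034) and than those of IGHG3 by 0.29 (19 of 24, permutation p = 0.0018, adjusted p = 0.0033). Among IGHJ genes, IGHJ2 was the most used by IGHG1 in the spleen (30.0%) and the LG (29.1%), and the IGHV1 family made up 66.0% and 61.6%. No IGHJ gene or IGHV family passed the adjusted threshold between NOD-FMT and PBS-T in either tissue (exact permutation). The lowest adjusted p was 0.18, for the IGHV3 family in the spleen (exact permutation p = 0.0123 before adjustment), the 1 of these tests with an unadjusted p under 0.05.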

How the data were processed

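BCR heavy-chain libraries of 24 LG and 24 spleen samples were reverse-transcribed with CH1 primers carrying UMIs and sequenced on a NovaSeq. The authors merged reads with PEAR, filtered them by Phred score, built UMI consensus sequences with Clustal Omega without singletons, took constant genes from IMGT and V(D)J genes from IgBLAST. The deposited counts are consensus sequences per unique sequence, not normalized, and V mismatches were used as deposited. The germline release is not given in the sources used here. The submitters' processing notes name mm10, and positions were taken from GENCODE M21, which uses GRCm38 (37 of 37 symbols matched).

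Sequences that at least 3 mice shared in a tissue were taken out. Percentages of IGHG1 were compared on the log2 scale with 0.5 added to counts. Per-clonotype means needed 5 clonotypes. NOD-FMT and PBS-T were compared by two-sided exact permutation over mice (92378 splits for 10 against 9), tissues and isotypes within mice by sign-flip permutation (exact to 10 mice, else 100000 resamples), with Benjamini-Hochberg adjustment. IGHV genes needed a mean of 0.1%. Wilson intervals and 3-count limits cover counting error only. Scripts were tested on simulated data. Scripts used SciPy 1.17.1, pandas 2.3.3, NumPy 2.4.6 and Matplotlib 3.10.9 under Python 3.11.15.

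Named clonotypes were, by tissue and group, the 3 with the highest share of their library, by tissue the 5 in most mice, the 5 largest of the LG also IGHG1 in the own spleen, and the 5 largest also with IGHA. The LG clonotypes with IGHA and the related pairs were added after their values were seen. IGHG1 and these lists were chosen with earlier results of these data known. Alternatives were other removal rules, minimum counts of 2 and 5 per clonotype and isotype, clonotypes by nucleotides, other totals, thinning, merged and other libraries apart, a replicate block and each mouse left out. Percent of IgG or non-IGHA counts, the sequences of 1 name prefix alone in merged libraries, removal of PBS-T mice 5 and 6 and of over 20 mismatches, and the recurrence count without removal, were chosen after seeing the data.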

Additional observations from a re-analysis of the deposited data

Results flagged for a closer look

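In 44 sets of 4 to 10 libraries of a group, 9 had a highest or lowest value set off from the nearest other value by more than Dixon's 95% limit. Chance sets off about 1 in 20 where values follow a normal distribution, and percentages over a wide range or mostly at 0 do not. As percent of LG counts, IGHG1 stood apart in PBS-T mouse 3 (10.5%, next 2.39%) and NOD-FMT mouse 3 (0.369%, next 0.121%), but on the log2 scale used for the tests neither did (gaps of 0.30 and 0.20 of the range). LG V mismatches stood apart in NOD-FMT mouse 6 (13.3, next 5.01), and LG HCDR3 length was lowest in BCR control mouse 3 (11 amino acids, next 12.9). The share of LG IGHG1 clonotypes with IGHA was 42.9% in NOD-FMT mouse 9 (next 18.2%). The share with IGHM was 9.09% in NOD-FMT mouse 2 (next 0%) and 11.1% in PBS-T mouse 2 (next 5.26%), but each value is 1 clonotype (of 11 and of 9), and with 0 in the other 7 NOD-FMT mice any clonotype with IGHM would stand apart. The largest clonotype of the spleen IGHG1 held 38.2% in NOD-FMT mouse 10 (next 21.5%) and 22.7% in PBS-T mouse 2 (next 13.5%).

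Contrasts within mice differed between NOD-FMT and PBS-T in 2 of 5 tests. The LG-to-spleen difference in log2 percent differed by -3.92 (exact permutation p = 0.000195), short of the threshold as percent of clonotypes, IgG counts or non-IGHA counts (-0.90, -1.44 and -1.88). In addition, the difference in spleen V mismatches between IGHG1 and IGHA differed by 0.47 (exact permutation p = 0.0151), or by 0.38 over counts (exact permutation p = 0.312).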

How the results depend on the processing

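Of 222 values of tested results under alternatives, 188 kept their direction and their side of the threshold, as did 386 of 410 with 1 mouse left out. The causes of the changes were not tested. The LG difference in IGHG1 percent (log2 -4.0) was -2.78 among the other LG libraries, -1.99 of IgG counts and -1.93 of non-IGHA counts. The spleen difference (-0.08) was 0.16 with no removal, 0.17 with a shared sequence kept in its highest mouse, 0.0018 and 0.12 at minimum counts of 2 and 5, and -0.70 as percent of clonotypes, and it ran from -0.24 to 0.073 with 1 mouse left out (0.0085 and 0.073 without NOD-FMT mice 7 and 8, 0.072 and 0.01 without PBS-T mice 1 and 8).

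Spleen V mismatches differed by 0.41 over counts, and clonotypes with IGHM by 4.88 at a minimum of 5 counts. Spleen HCDR3 length differed by -0.29 to -0.15 with 1 mouse left out, past the threshold without PBS-T mouse 7. The share with IGHA differed by -6.67 to -4.40, short of it without PBS-T mouse 1. LG clonotypes in the own spleen differed by 14.0 and the LG unmutated share by -19.1 among the other LG libraries.

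LG minus spleen percent (log2 -2.58) was -0.24 on the linear scale, 1.34 of clonotypes and 1.47 of non-IGHA counts. Its difference between NOD-FMT and PBS-T (-3.92) was -0.90, -1.44 and -1.88 of clonotypes, IgG counts and non-IGHA counts, each short of the threshold. LG minus spleen V mismatches (-0.36) were short of the unadjusted threshold, and 7 of 12 alternatives kept their direction and side. They were -1.59 and -1.15 at minimum counts of 2 and 5, -1.75 in the other LG libraries and -1.19 over counts, each past the threshold. In the merged libraries the direction turned, with 1.30. With 1 mouse left out they were -0.86 to -0.21, past the threshold without NOD-FMT mouse 6. IGHG1 minus IGHA V mismatches (-0.04) were -0.45 at a minimum of 5 counts and -0.75 over counts, both past the threshold, and -0.082 to 0.00087 with 1 mouse left out.

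The 2 IGHV genes called became 1 at a minimum of 2 counts, 0 at 5 counts, 0 of IGHG1 counts, 0 with no minimum usage, 0 without PBS-T mice 5 and 6 and 0 to 3 with 1 mouse left out.

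Replicate numbers do not pair mice across groups. Same-numbered mice correlated above 0.1 in 1 of 9 pairs (r = -0.45 to 0.66), and 1 NOD-FMT mouse correlated best with its own number. With the replicate block the LG difference was -3.81 (exact permutation p = 0.0078), 0 IGHV genes were called, and no other call changed. Limits are set by the 1 to 227 IGHG1 counts per NOD-FMT LG library and by the subclass call, which rests on 20 bases.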
